A study of Mus musculus with 22 samples.

Results

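The accessibility of the Fto-Irx locus and of 3 factors that mark fat depots was examined in ATAC-seq peak lists of mouse adipocyte nuclei. The 6 genes were Fto, Irx3 and Irx5, which neighbour each other on chromosome 8, and Tbx15, Shox2 and Tcf21. They were chosen by name, as genes tied to obesity risk or to depot identity, out of 55413 gene models, with earlier results of these data known. Each locus was the gene with 20 kb added on each side, and the whole stretch from the start of Fto to the end of Irx5, chr8:91313525-92376286 in GRCm38, was followed as a seventh locus. Every peak of the 22 libraries that touched a locus was used.

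The nuclei came from epididymal fat of AdipoERCre x NuTRAP mice on a C576BL6 background, as the labels spell it. In these animals tamoxifen switches on a Cre recombinase in adipocytes, and the Cre turns on a reporter that puts biotin on nuclei and a tag on ribosomes. All 8 groups carried both alleles and received tamoxifen, each library came from 1 animal, and nuclei in which Cre did not act carry no biotin. In the short series, C mice (n = 3) ate chow to an age of 18 weeks and H mice (n = 3) of that age had eaten high-fat food for 12 weeks. HC mice (n = 3) went from 12 weeks of high-fat food to 8 weeks of chow and were taken at 26 weeks, as were their chow controls CC_s (n = 3). In the long series, HH mice (n = 3) had eaten high-fat food for 25 weeks and were taken at 31 weeks with the chow controls CC_l (n = 2). HHC mice (n = 3) added 8 weeks of chow to such a period and were taken at 39 weeks with the chow controls CCC (n = 2). During the weeks of weight loss both arms, controls included, received another chow. Each diet group was compared with its control of the same age, so that the 4 comparisons share no library.

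FTO is an enzyme that removes methyl groups from RNA, and variants in its first introns are linked to human body weight. Part of that association has been traced to enhancers inside FTO that act on IRX3 and IRX5, homeobox factors that hold back heat-producing programmes in fat precursors. TBX15 is a T-box factor and SHOX2 a homeobox factor, both known from subcutaneous fat, whereas TCF21, a basic helix-loop-helix factor, is known from visceral fat precursors.

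The libraries differed in their thresholds. They held 40528 to 60523 peaks over 128 to 299 Mb, and the lowest total signal of a peak that was kept, here used as the mark of the threshold, ran from 7639 in HC 3 to 24366 in HHC 2. The total signal of a peak is its coverage summed over its bases. In HC 3 and HHC 3 the median peak reached only 2.43 and 2.25 times the lowest maximum signal of its list, against 3.67 to 8.92 in the other 20 libraries, so both stand apart. All 12 adipocyte markers had a promoter peak in all 22 libraries. The promoters with a peak numbered 3 to 8 of 12 macrophage markers, 1 to 8 of 8 endothelial markers and 0 to 6 of 8 mesothelial markers per library. Of 10 progenitor markers 6 to 9 had a promoter peak per library, and 4 had one in all 22. Signal was compared after rank-mapping, which gives the locus of each rank the mean log2 total signal of that rank over all libraries and sets loci below the shared ranks to a floor of 14.06.

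The first is the stretch before the Fto start, which Fto shares with the divergent gene Rpgrip1l and which held a peak in every library. The Shox2 and Tcf21 promoters are the pair of depot factors that differed most in how often a peak was called. The windows are the 200 bases that held the most peak summits in the intron 8 region of Fto and in the region between Irx3 and Irx5 that the results turn on. Promoters are from RefSeq on GRCm38.p6, cut at the GENCODE gene start and read on the gene's strand, and windows are from the same assembly on the forward strand. Capitals mark matches to TGANTCA, the AP-1 motif.
Fto promoter, chr8:91313275-91313524: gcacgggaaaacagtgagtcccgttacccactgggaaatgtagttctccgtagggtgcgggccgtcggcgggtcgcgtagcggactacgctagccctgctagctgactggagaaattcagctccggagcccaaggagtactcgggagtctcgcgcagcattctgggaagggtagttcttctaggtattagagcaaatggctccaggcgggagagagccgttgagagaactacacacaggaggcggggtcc
Shox2 promoter, chr3:66981772-66982021: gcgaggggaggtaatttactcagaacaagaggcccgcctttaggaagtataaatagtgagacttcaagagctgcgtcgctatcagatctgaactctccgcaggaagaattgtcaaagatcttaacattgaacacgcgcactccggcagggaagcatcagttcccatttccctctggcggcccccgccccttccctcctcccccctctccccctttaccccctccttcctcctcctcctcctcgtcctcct
Tcf21 promoter, chr10:22820175-22820393: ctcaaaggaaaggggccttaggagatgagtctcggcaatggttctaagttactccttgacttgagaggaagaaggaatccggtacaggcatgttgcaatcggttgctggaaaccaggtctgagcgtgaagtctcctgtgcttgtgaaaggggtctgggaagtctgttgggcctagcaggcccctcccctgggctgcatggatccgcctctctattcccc
Fto intron 8 window, chr8:91529893-91530092: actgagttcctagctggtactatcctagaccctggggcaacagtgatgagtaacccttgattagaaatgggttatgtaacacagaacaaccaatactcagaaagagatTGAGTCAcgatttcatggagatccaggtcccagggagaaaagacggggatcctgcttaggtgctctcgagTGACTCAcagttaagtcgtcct
Irx3 to Irx5 window, chr8:91846527-91846726: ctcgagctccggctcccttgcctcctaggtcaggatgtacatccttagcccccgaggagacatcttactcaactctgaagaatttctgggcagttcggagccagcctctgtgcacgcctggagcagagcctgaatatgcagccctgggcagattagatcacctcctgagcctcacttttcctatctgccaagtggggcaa

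5 motifs were searched on both strands, namely ACANNTGT of Iroquois factors, TCACACC of T-box factors, TAATTA of homeodomains, TTGCNNAA of C/EBP factors and TGANTCA of AP-1. The 3 promoters held none of them in these letters, and over the 250 bases before the start in 32851 RefSeq promoters the shares with a match were 6.31% for ACANNTGT, 3.33% for TCACACC, 4.84% for TAATTA, 9.56% for TTGCNNAA and 6.75% for TGANTCA. The intron 8 window held 2 matches to TGANTCA. Over 12395 windows of the same length, 1 in each region found in every library, 5.87% held at least 1 match and 0.258% held at least 2. Those windows were centred on the strongest summit in C 1. The intron 8 window was centred on the densest summits over libraries, in a region picked for its p, so these shares are not like for like. The window between Irx3 and Irx5 held no match to any of the 5 motifs. The Fto promoter had 18 CpG dinucleotides and a GC content of 59.2%, the Shox2 promoter 11 and 55.6% and the 219 bases of the Tcf21 promoter 5 and 54.8%, against a median of 6 CpG and 52.4% GC over all RefSeq promoters. Irx5 and Tbx15 are not in the promoter table.

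Fto held peaks along its body in every library. Its locus of 394.9 kb held 15 to 25 peaks per library, which covered 7.28% (HC 3) to 26.4% (CC_s 2) of its bases with a median of 19.7%. Relative to the share of the genome that the same library's peaks covered, this was 1.55 to 3.19 times as much, with a median of 2.64. Over 21938 coding loci, the mean covered share of Fto lay at the 64.4th percentile and its signal per kb at the 59.2th.

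A region is the union of overlapping peaks of any library. In the Fto locus 7 of 29 regions (24.1%) were found in all 22 libraries, against 11.8% of 104657 regions genome-wide, and 11 were found in 20 or more. 6 regions lay in intron 1, which spans 88.2 kb in the Fto-201 transcript, and 3 of these were found in 20 or more libraries. Intron 8, the last and longest at 143.4 kb, held 12 regions, of which 4 were found in 20 or more libraries. The promoter region, chr8:91310721-91318061, had a summit within 500 bp of the same place in all 22 libraries and a median maximum signal of 229.5, against 86.5 in the first intron 1 region, chr8:91318959-91335719. The strongest region of the locus by mean signal was chr8:91547213-91571170 in intron 8, whose peaks covered a median of 13361 bp, while its summits were spread, with 9 of 22 within 500 bp of their median.

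Between the genes the peaks thinned out. The stretch of 130.1 kb from the end of Fto to Irx3 held 3 to 6 peaks per library over a median of 7.61% of its bases, and 4 of its 7 regions were found in 20 or more libraries. The stretch of 555.6 kb from Irx3 to Irx5 held 3 to 16 peaks over a median of 2.60%, against 20.4% in the body of Fto. Of the 29 regions in that stretch 22 were found in a single library and 3 in 20 or more, namely the edge of the Irx3 promoter region, the region before Irx5 and a region of 21 libraries at chr8:91844582-91854334, whose median summit lies 44.6 kb upstream of Irx3. HHC 3 had 36 peaks and HH 1 had 40 peaks in the whole interval, and the other 20 libraries had 21 to 33.

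**Figure D1:**
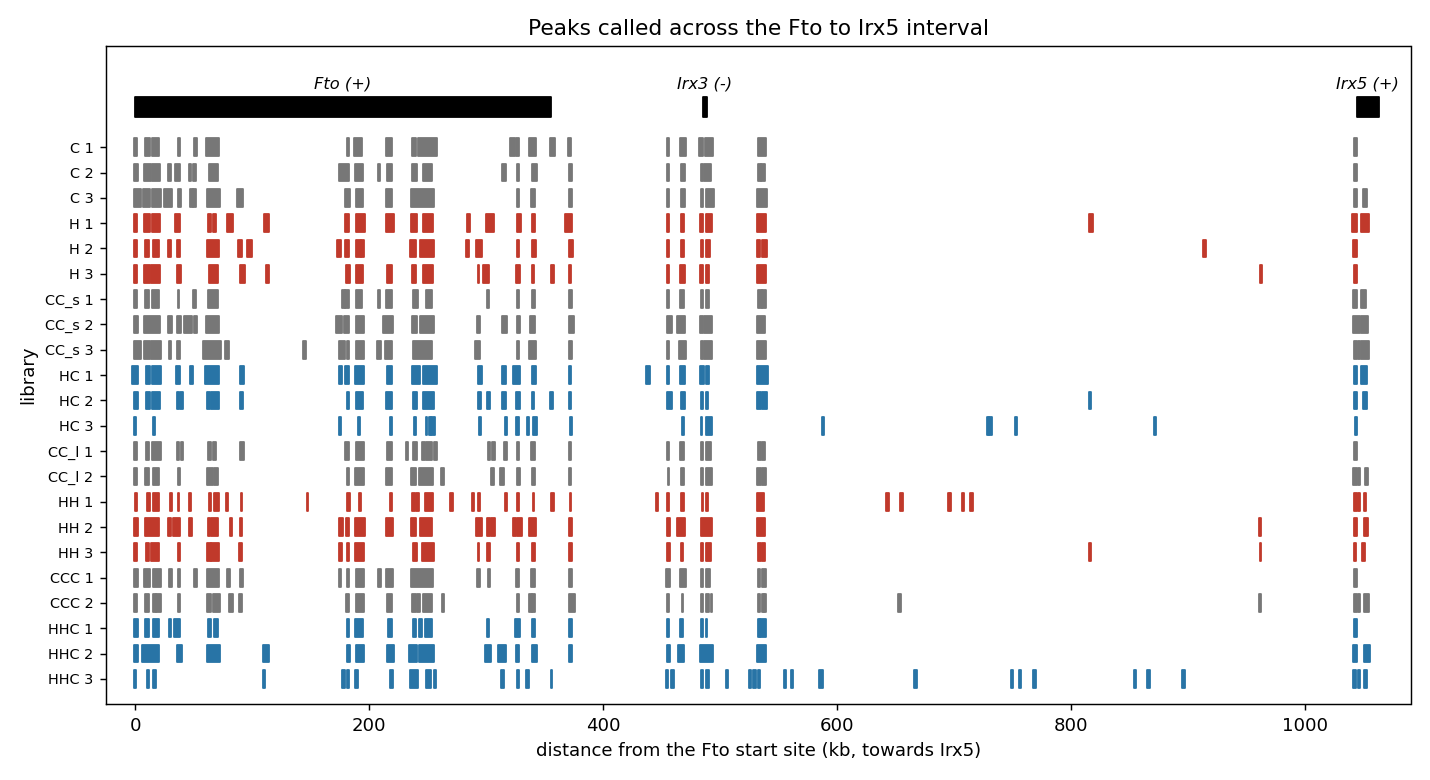
Peaks called between Fto and Irx5, with distance from the Fto start site in kb on the horizontal axis and 1 row per library; bars are peaks, grey for chow controls, red for H and HH and blue for HC and HHC, and black bars at the top are the genes with their strand. The bars cluster in Fto, at Irx3, at the region 44.6 kb upstream of Irx3 and at Irx5, and the gap between Irx3 and Irx5 holds the most bars in HHC 3 (16 peaks), HH 1 (9) and CCC 2 (8).

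Irx3 and Irx5 had a promoter peak in all 22 libraries. The Irx3 locus held 2 to 4 peaks that covered 9.66% to 35.6% of its 43.5 kb, the highest median share of the 6 loci at 21.01%, and its promoter region chr8:91795655-91807801 had 21 of 22 summits within 500 bp of their median. Irx3os, an antisense transcript, starts in the same region, and ATAC-seq does not assign open chromatin to a strand. The Irx5 locus held 1 to 3 peaks over 3.49% to 20.7% of 58.7 kb. Its main region, chr8:92353481-92360563, had all 22 summits within 500 bp of their median, 1.41 kb upstream of the Irx5 start, where the divergent non-coding gene Crnde also starts. A second region inside Irx5, chr8:92360904-92368878, was found in 14 libraries.

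Epididymal fat is a visceral depot. The Shox2 promoter held a peak in all 22 libraries, the Tbx15 promoter in 9 and the Tcf21 promoter in 6. The main Shox2 region, chr3:66972565-66984263, spans the gene and its start. Of its 22 summits 12 lay within 500 bp of their median, which is 2.85 kb inside the gene. The region overlaps the promoter of Rsrc1, as does the next region, chr3:66984767-66989248, found in 19 libraries. The median maximum signal was higher in this second region than in the first, at 71 against 30. Total signal of the Shox2 promoter peaks ran from 12235 in HC 3 to 116646 in HC 1.

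Tcf21 peaks came only from libraries with low thresholds. The promoter region chr10:22819023-22822409, which also holds the antisense gene Gm10824, was called in HC 2, HC 3, CC_l 1, CCC 2, HHC 1 and HHC 3. Its total signal was 12473 in HC 2, 11371 in HC 3 and 12152 in CC_l 1. It was 14967 in CCC 2, 11766 in HHC 1 and 19625 in HHC 3. The lowest total signal kept in these 6 libraries was 7639 to 12132, and they are 6 of the 7 libraries with the lowest thresholds. The seventh, HH 1 with 9995, had no Tcf21 peak. The other 15 libraries had thresholds of 13505 to 24366. As unscaled totals, the values of HC 2, HC 3, CC_l 1 and HHC 1 lie under all of these thresholds. Those of CCC 2 and HHC 3 lie above some of them, such as 13505 in CC_s 1. Unscaled totals cannot compare openness between libraries, because the summed signal of all peaks also differed and was lowest in HC 3. Whether Tcf21 is open to the same degree in those 15 libraries was not tested.

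Tbx15 peaks were weak as well but did not follow the threshold as closely. A promoter peak was called in C 2, CC_s 1, HC 1, HC 2, HC 3, CC_l 2, HH 2, CCC 2 and HHC 2, that is in 3 of the 7 libraries with the lowest thresholds and in 6 of the other 15, and its total signal ran from 9610 in HC 3 to 47336 in HHC 2. The promoter region called in these 9 libraries was chr3:99251462-99258211, whose median summit lies 13.7 kb inside the gene, near an internal annotated start. The strongest region of the locus by mean signal, chr3:99232687-99238374, was found in 13 libraries and lies in the flank, inside the neighbouring gene Wars2. No part of the Tbx15 or Tcf21 locus was called in all 22 libraries, and their mean covered shares lay at the 24.9th and 21.9th percentile of coding loci.

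**Figure D2:**
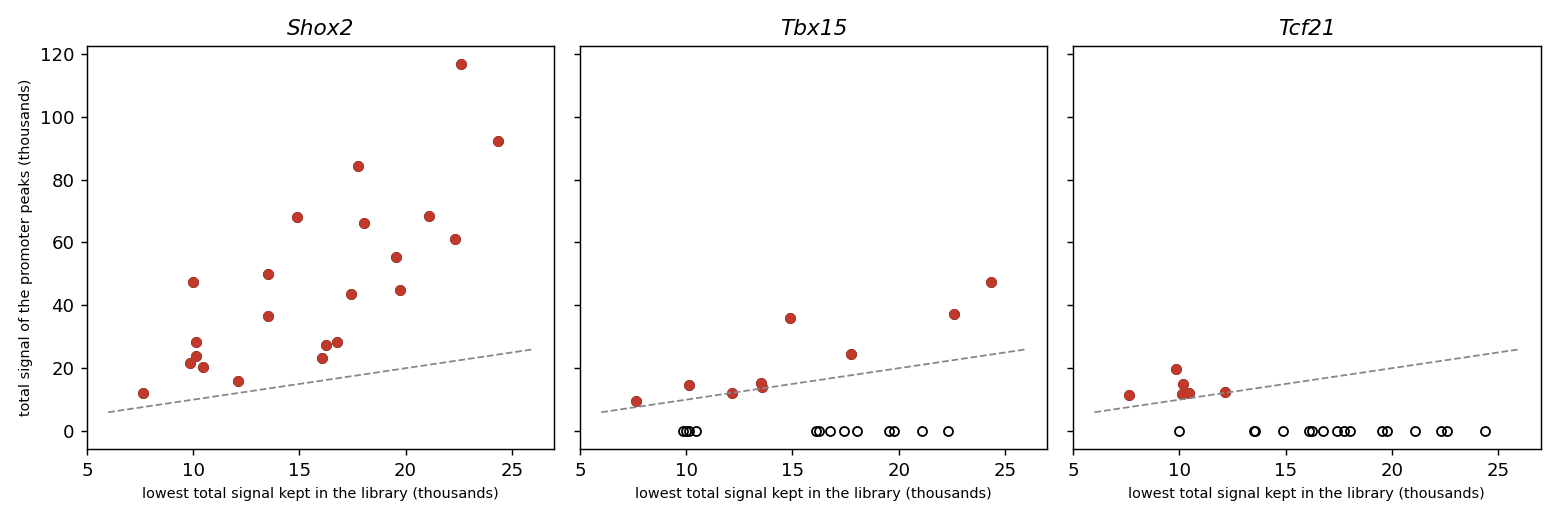
Total signal of the promoter peaks of Shox2, Tbx15 and Tcf21 (vertical axis, k) against the lowest total signal kept in each of the 22 libraries (horizontal axis, k); filled points have a peak, open points at 0 have none, and on the dashed line the 2 values are equal. Shox2 has a peak in all 22 libraries, Tbx15 in 9 on both sides of the range and Tcf21 in 6, all at thresholds of 12132 or less.

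The first comparison asked what obesity did to these loci after 12 weeks of high-fat diet. Fto locus signal (log2, rank-mapped) was 19.95, 19.64 and 19.55 in C 1 to C 3 and 19.98, 20.06 and 19.98 in H 1 to H 3. All 3 H libraries lay above all 3 C libraries, with means of 20.01 ± 0.05 (SD, n = 3) and 19.72 ± 0.21 (SD, n = 3). The difference of 0.29 (SE 0.13) did not pass (limma, adjusted p = 0.180 over 33199 loci). The whole interval gave 20.35, 20.03 and 19.92 in C and 20.43, 20.47 and 20.45 in H, again without overlap. Its difference of 0.35 (SE 0.13) had an adjusted p of 0.125 (limma). Groups did not overlap in these 2 of the 6 loci tested (5 genes and the interval, which holds Fto), and in 38% of all loci tested.

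None of the 6 loci tested between H and C was called by limma at an adjusted p under 0.05, where 10.6% of all loci were. Irx3 was 17.27, 16.96 and 16.67 in C and 16.94, 16.88 and 16.93 in H, a difference of -0.051 (SE 0.20). Irx5 was 15.88, 16.10 and 15.95 in C and 16.70, 15.75 and 15.85 in H, a difference of 0.12 (SE 0.29). The H range enclosed the C range in Irx5 and fell inside it in Irx3. Shox2 differed by 0.011 (SE 0.26) and Tbx15 by -0.26 (SE 0.33), with 95% intervals of -0.60 to 0.63 and -1.04 to 0.51. Tcf21 had no peak in any library of either group.

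After weight loss from 12 weeks of high-fat diet no member was called either, and neither was any of the 32830 loci tested (0%), although 3009 had an unadjusted limma p under 0.05. Fto was 19.82, 19.38 and 19.57 in CC_s and 19.73, 19.77 and 19.63 in HC, so that the HC libraries fell inside the range of their controls, with a difference of 0.12 (SE 0.16). Irx5 was 16.62, 16.64 and 16.72 in CC_s and 16.34, 16.33 and 16.04 in HC. All 3 HC libraries lay below all 3 controls, with a difference of -0.42 (SE 0.27) and an adjusted p of 0.620 by limma. With the maximum in place of the total signal the difference was 0.022.

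Tbx15 had peaks in all 3 HC libraries and in 1 control. It was 15.12 in CC_s 1 and at the floor in CC_s 2 and CC_s 3, against 15.41, 15.13 and 17.40 in HC. Of the 4 libraries above the floor 3 were HC, so the difference of 1.56 (SE 0.66, limma adjusted p = 0.544) rests in large part on whether a peak was called, and CC_s 1 lay just below HC 2. Without HC 3 the difference was 0.86. HC 3, the library with the lowest threshold, gave the highest Tbx15 value of all 22 libraries. With Irx5 and Tbx15, 2 of 6 tested loci did not overlap, against 16.5% of all loci. Irx3 differed by 0.18 (SE 0.28) and Shox2 by 0.23 (SE 0.44).

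In the long series the obese group HH was compared with CC_l. Fto was 20.15 and 19.74 in CC_l and 20.32, 20.14 and 19.95 in HH, which overlap. The difference of 0.19 (SE 0.18) was not called (limma, adjusted p = 0.738), and its sign turned with the 20000 strongest peaks, to -0.15, and without CC_l 2, to -0.017. Irx3 differed by 0.066 (SE 0.27), Irx5 by 0.21 (SE 0.55), Shox2 by 0.49 (SE 0.42) and Tbx15 by -0.25 (SE 0.53). All 6 tested loci overlapped between the groups, where 31.5% of all loci did not. Over 34084 loci 0% were called, and 3966 had an unadjusted limma p under 0.05.

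After weight loss from 25 weeks of high-fat diet, Shox2 was 16.04 and 15.37 in CCC and 15.93, 16.48 and 16.56 in HHC. The difference of 0.62 (SE 0.46) had a 95% interval of -0.52 to 1.76, and it was 0.28 without CCC 2 and 0.95 without CCC 1. Fto differed by -0.066 (SE 0.17), Irx3 by 0.27 (SE 0.41), Irx5 by 0.075 (SE 0.67), Tbx15 by 0.53 (SE 0.78) and Tcf21 by 0.26 (SE 0.45). Groups overlapped in all 7 tested loci and were apart in 24% of all loci, and limma called 0% of 34234 loci, with 1337 at an unadjusted p under 0.05. With 2 controls the intervals of Irx5 and Tbx15 spanned more than 3 log2 units.

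**Figure D3:**
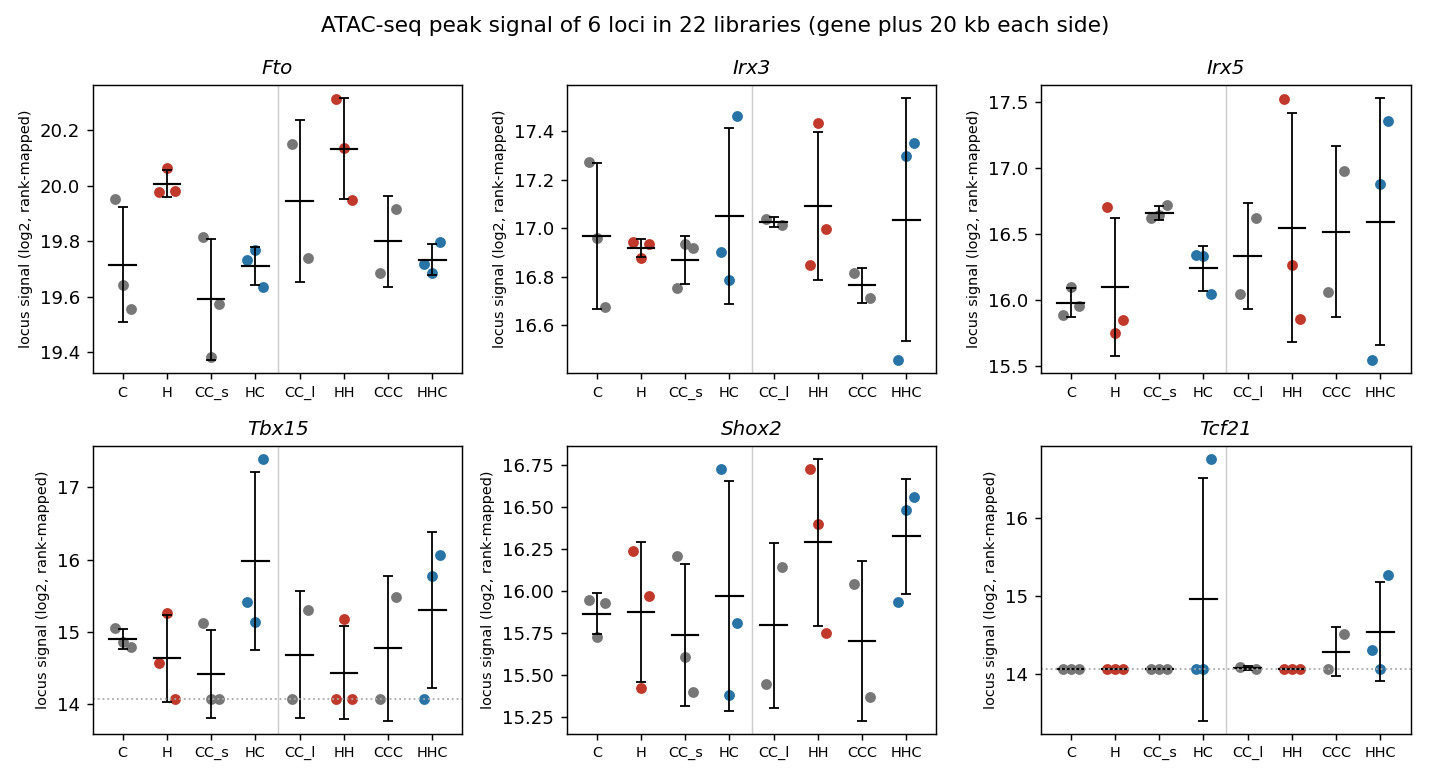
Locus signal of the 6 genes (log2, rank-mapped) by group; points are libraries, horizontal bars are means, error bars are SD over 2 or 3 libraries, the dotted line is the floor of 14.06 and the grey vertical line divides the short from the long series. H lies above C in Fto, HC lies below CC_s in Irx5 and above it in Tbx15, and Tcf21 is highest in HC 3, HHC 3 and CCC 2.

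**Figure D4:**
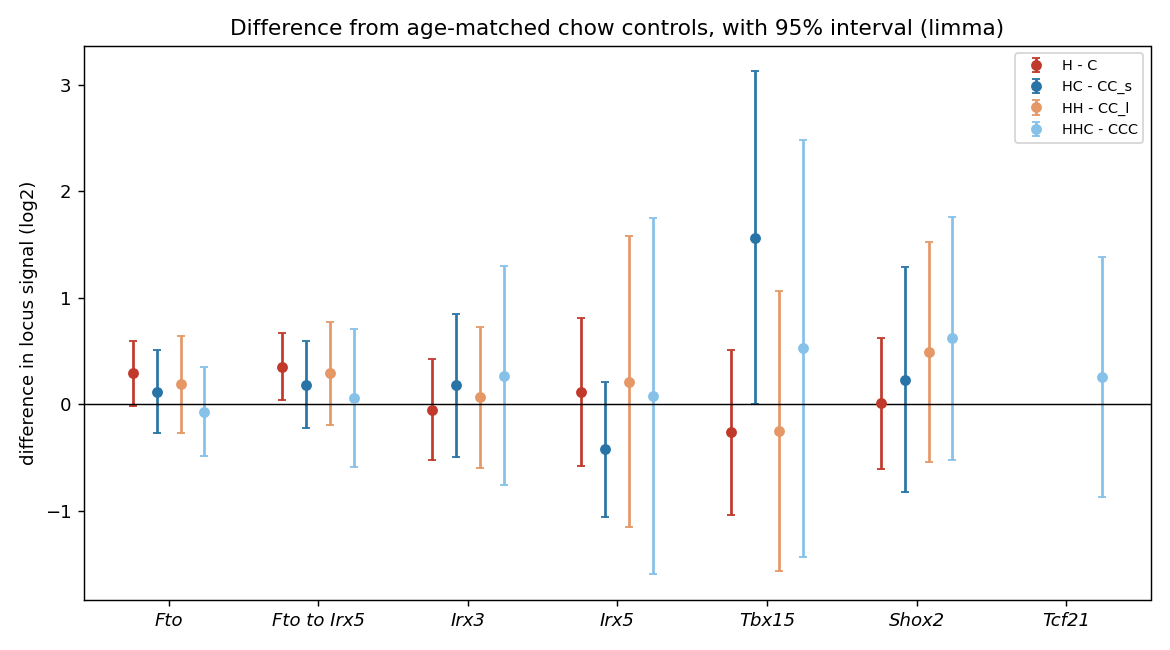
Difference in locus signal (log2) of each diet group from its control of the same age with the 95% interval from limma, for the 6 genes and the Fto to Irx5 interval; colours give the 4 comparisons. The intervals of Fto and of the whole interval are the narrowest in each comparison, and Tcf21 could be fitted only for HHC and CCC.

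The effect of diet on these loci was not shown to differ between the durations. In the test of the difference between durations (limma) 0 of the 6 loci tested for obesity and 0 of the 7 tested for weight loss were called, against 0.0147% and 0% of all loci. The largest such differences were 0.48 (SE 0.48) for Shox2 in obesity and -1.04 (SE 1.09) for Tbx15 in weight loss. The durations coincide with 2 series of libraries and cannot be told apart from them.

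The covered share of the loci was tested with durations combined. Two-sided exact permutation within each duration, over 200 relabellings, called 0 of 7 loci for obese against control and 0 of 7 for weight loss against control, where 18.8% and 8.56% of all loci with a peak were called. The covered share relative to the genome differed in Irx3 under obesity by -0.59 (exact permutation p = 0.255), and in Tcf21 after weight loss by 0.61 (exact permutation p = 0.250). Single libraries moved both values, for Irx3 to -0.315 without C 1 and -0.883 without HH 2, the latter past the threshold (exact permutation p = 0.033), and for Tcf21 to 0.257 without HC 3 and 0.866 without CCC 2. The lowest p was that of Tbx15 after weight loss, with a relative share higher by 0.43 (exact permutation p = 0.060, adjusted over all loci 0.550). In bulk nuclei, more nuclei with an open site and a wider opening per nucleus cannot be told apart.

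The share of all promoters called by limma was 2.81% for H and C, 0.101% for HC and CC_s, 0.11% for HH and CC_l and 0% for HHC and CCC, and the promoters of the 6 genes gave 0 calls of 4, 4, 5 and 6 tested, with 0 at an unadjusted limma p under 0.05. Fto promoter signal differed by -0.058 (SE 0.18) between H and C, where the locus differed by 0.29. Shox2 promoter signal was higher in the diet group by 0.41 (SE 0.30), 0.50 (SE 0.58), 0.55 (SE 0.61) and 0.37 (SE 0.39) in the 4 comparisons, with adjusted p of 0.482, 0.789, 0.896 and 0.943 by limma. Single libraries moved the region that holds this promoter, chr3:66972565-66984263. With each library left out its difference was -0.062 (without H 1) to 0.51 for H, -0.25 (without HC 1) to 0.82 for HC, -0.013 (without CC_l 1) to 1.02 for HH and 0.15 to 0.58 for HHC.

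Of 73 regions in the loci, 21, 24, 25 and 27 could be tested in the 4 comparisons, and by limma 0 passed an adjusted p under 0.05 together with a log2 difference above 1. Over all regions these calls made up 8.28% for H and C and 0% for HC and CC_s, HH and CC_l and HHC and CCC. An unadjusted limma p under 0.05 was reached by 4 of 21, 2 of 24, 1 of 25 and 0 of 27 regions in the loci, against 34.9%, 12%, 13.7% and 6.14% of all regions. Groups did not overlap in 7 of 21, 6 of 24, 5 of 25 and 7 of 27 tested regions, against 40.7%, 19.2%, 32.6% and 24% of all regions. At an unadjusted limma p under 0.01 with the same fold the loci held 1 region, for HC and CC_s, where the shares of all regions were 8.52%, 2.54%, 2.68% and 0.706%.

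That region lay in intron 8 of Fto and was lower in the diet group in all 4 comparisons. It is chr8:91525158-91534464, 218 kb from the Fto start and 270 kb from that of Irx3, it overlaps the start of the gene model Gm45290, and its window with 2 AP-1 matches is printed above. It was found in 20 of 22 libraries, absent in H 2 and HH 3. It also had the smallest p of all tested regions of these loci in HC against CC_s and in HH against CC_l. Of 20 summits 9 fell in the printed window. The other 11 lay outside it, within 500 bp of the median summit at chr8:91531917, so most libraries peaked away from the AP-1 matches.

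Its signal (log2, rank-mapped, with a floor of 14.01) was 16.12, 15.95 and 15.04 in C and 15.54, 14.01 and 14.89 in H, which overlap. It was 15.88, 16.06 and 16.001 in CC_s and 14.88, 15.09 and 14.01 in HC. It was 15.94 and 15.85 in CC_l and 14.52, 15.23 and 14.01 in HH. In both of these pairs every diet library lay below every control. In CCC it was 16.07 and 15.91, above 15.61, 15.75 and 15.08 in HHC. The floor values of H 2 and HH 3 are libraries without a peak, and that of HC 3 is a peak below the shared ranks.

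The differences were -0.89 (SE 0.44) for H, -1.32 (SE 0.39) for HC, -1.31 (SE 0.44) for HH and -0.51 (SE 0.41) for HHC, each against its control. By limma the adjusted p was 0.189, 0.234, 0.282 and 0.805, so that none passed over all regions. The 4 comparisons use different controls, but the region was picked for its p in HC and in HH. Single low libraries moved these values. The difference was -0.49 for H without H 2, -0.999 for HC without HC 3, -1.02 for HH without HH 3 and -0.31 for HHC without HHC 3, and the limma adjusted p with each library left out was 0.094 or more in all 4 comparisons.

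The region 44.6 kb upstream of Irx3 was higher in H than in C. It was 15.79, 15.70 and 16.07 in C and 16.53, 16.43 and 16.70 in H, without overlap. The difference of 0.70 (SE 0.18) passed limma's adjusted p (0.034) but not the fold, and it was the smallest p of the tested regions in that comparison. The call rests on the setting: with each library left out in turn the limma adjusted p was 0.042 (without C 3) to 0.129 (without C 2), and with all libraries of the short series in the fit it was 0.370. It was 16.40, 15.95 and 16.29 in CC_s and 16.49, 16.35 and 14.01 in HC. It was 16.46 and 16.26 in CC_l and 16.67, 16.10 and 16.57 in HH. It was 15.99 and 15.71 in CCC and 16.10, 15.87 and 14.01 in HHC. These 3 pairs overlap, and the floor values are those of HC 3, which had no peak here, and HHC 3, whose peak lay below the shared ranks.

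The strongest region of Fto, in intron 8, was higher in the diet groups H, HC and HH than in each of their controls. The differences were 0.29 (SE 0.12), 0.27 (SE 0.18) and 0.18 (SE 0.14), with limma adjusted p of 0.139, 0.579 and 0.606, and between HHC and CCC the libraries overlapped at a difference of 0.17 (SE 0.30). With each library left out the differences were 0.21 to 0.35 for H, 0.18 (without CC_s 1) to 0.34 for HC, 0.12 (without HH 1) to 0.23 for HH and -0.033 (without HHC 3) to 0.42 (without HHC 1) for HHC. The last region touched by the flank of Fto, chr8:91680638-91689050 at the gene model Gm9619, had the smallest p for HHC and CCC. Its differences were -0.22 (SE 0.27) for H, -0.58 (SE 0.36) for HC, -0.71 (SE 0.40) for HH and -1.09 (SE 0.55) for HHC, without overlap in the last 3, and the limma adjusted p of the last was 0.805. HHC 3 had no peak here. With each library left out they were -0.47 (without H 1) to -0.086 (without H 2) for H, -0.78 to -0.38 (without HC 3) for HC, -0.96 to -0.46 (without HH 1) for HH and -1.43 to -0.81 for HHC.

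**Figure D5:**
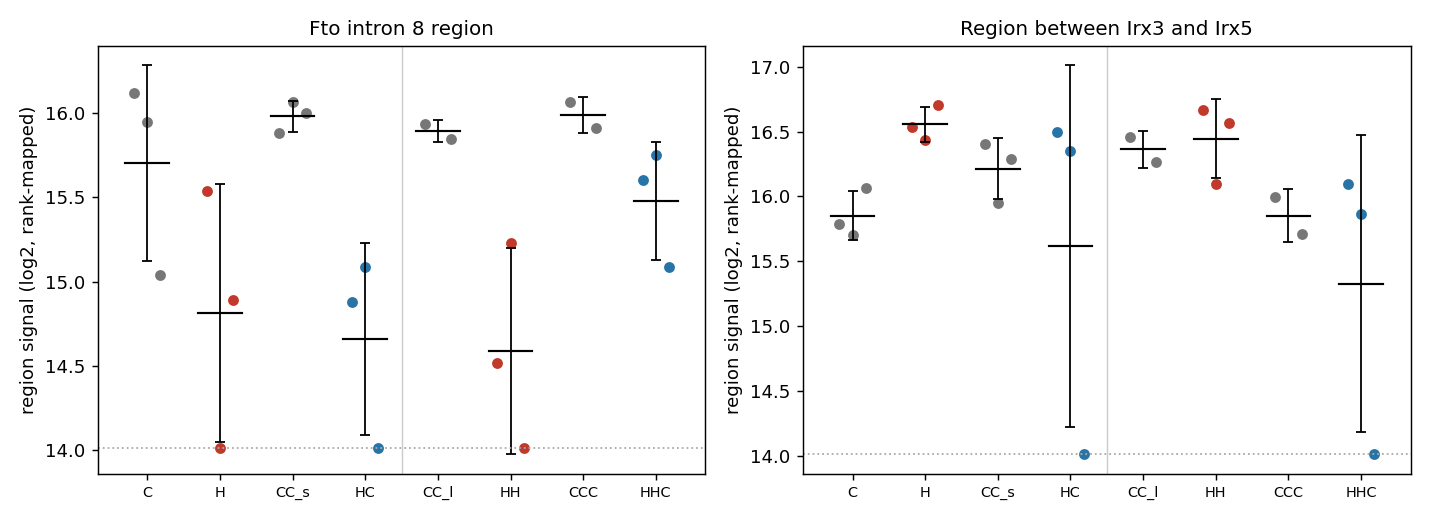
Signal (log2, rank-mapped) by group of the Fto intron 8 region chosen by its p and of the region between Irx3 and Irx5; points are libraries, bars are means, error bars are SD and the dotted line is the floor of 14.01. The left panel shows the diet group below its control in each pair, with overlap only between H and C, and the right panel shows H above C, with HC 3 and HHC 3 at the floor.

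Loci on other chromosomes with the most similar signal over the 22 libraries were named by Pearson r, as a description. For Fto they were Tpra1, Impa2 and Tmcc3 (r = 0.83, 0.81 and 0.81), and for Irx3 Wdr7, Galnt17 and Kcnip4 (0.72, 0.72 and 0.72). For Irx5 they were Gata2, Gm15217 and Bmp4 (0.81, 0.80 and 0.80), the last 2 with the same r. For Tbx15 they were Esrrg, Fam155a and Zic1 (0.86, 0.83 and 0.82), and for Shox2 Rasa1, Epc2 and Atmin (0.74, 0.73 and 0.71). The whole interval was nearest to Tanc1, Tbc1d1 and Itpr1 (0.89, 0.88 and 0.86). These are the highest of 16241 or 16296 loci, and the libraries share their differences in threshold. Among the members, the r of Fto was 0.12 with Irx3 and 0.08 with Irx5, and that of Irx3 with Irx5 was 0.16.

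The wider gene lists gave the setting. They too were chosen with earlier results of these data known, so their counts beside the shares of all loci are a description. Of the circuit described around the human FTO locus (Arid5b, Irx3, Irx5, Ucp1, Ppargc1a and Prdm16), 0 of 6 loci were called in any comparison, with medians of 0.23, 0.10, 0.43 and 0.11. The share of all loci called was 10.6% in H against C and 0% in the other 3 comparisons. Arid5b, whose product binds the human FTO enhancer, and Ppargc1a, a coactivator of mitochondrial genes, had a promoter peak in all 22 libraries, whereas Ucp1, the uncoupling protein of brown fat, had one in 2. Of the genes around Fto and Irx5, the promoters of Chd9, Rbl2, Aktip and Rpgrip1l were called in all 22 libraries and that of Mmp2 in 2. The Mmp2 locus, a matrix metalloproteinase gene next to Irx6, fell by 0.98 (SE 0.22, limma adjusted p = 0.040) in H against C, and it was 1 of 10 neighbours called, where 10.6% of all loci were. The call held in 3 of 14 alternatives and in 1 of the 6 that left out a library, with an adjusted p of 0.146 without C 2 and of up to 0.534. Of the Irx family, Irx6 had a promoter peak in 20 libraries, Irx2 in 16, Irx1 in 13 and Irx4 in 2. Of its loci 0 were called, against the same shares of all loci.

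All 11 genes of the RNA methylation machinery, Fto included, had a promoter peak in all 22 libraries. 3 of these 11 loci rose in H against C, where 6.4% of all loci did, namely Mettl3, a writer, by 0.58 (SE 0.13), Virma, a writer subunit, by 0.58 (SE 0.12) and Ythdf3, a reader, by 1.04 (SE 0.17), with limma adjusted p of 0.040, 0.030 and 0.019. The median of the 11 was 0.28 against -0.015 over all loci. In the other 3 comparisons 0 of the 11 loci were called, where 0% of all loci were, and the medians of the 11 were 0.076, 0.057 and -0.066. Between H and C 0 of the 11 promoters were called, where 2.81% of all promoters were, with a median of 0.088. Of 14 alternatives the call held in 4 for Mettl3, 5 for Virma and 7 for Ythdf3, and of the 6 that left out a library in 0, 2 and 3. Without C 2 the adjusted p were 0.118, 0.105 and 0.080.

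Of 8 visceral depot genes 7 could be tested in H against C, and 3 of these fell, where 4.17% of all loci did. The untested gene was Tcf21. Gata6, a zinc finger factor of visceral fat and mesothelium, fell by 1.60 (SE 0.21, limma adjusted p = 0.011), Hoxa5, a homeobox gene, by 1.53 (SE 0.27, 0.022) and Gpc4, a glypican, by 1.28 (SE 0.31, 0.045). The medians of the list were -1.28, -0.61, -0.57 and -0.72 in the 4 comparisons against -0.015, -0.044, -0.033 and -0.052 over all loci. No gene of it was called outside H against C, where 0% of all loci were. Of 6 subcutaneous genes 0 were called, where 10.6% of all loci were in H against C and 0% in the other 3 comparisons. Their medians were 0.05, 0.42, -0.06 and -0.29. Of 14 alternatives the call held in 12 for Gata6, 8 for Hoxa5 and 3 for Gpc4. Without C 2 the 3 adjusted p were 0.058, 0.093 and 0.142, and the number of all loci called fell from 3511 to 444.

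Promoters of other cell types varied between the same libraries. The summed share of the 8 mesothelial promoters in a library's peak signal, in ppm, was 0 to 6.71 in H against 13.9 to 59.0 in C, and 0 to 11.9 in HH against 24.7 to 56.4 in CC_l. It was 43.3 to 328.4 in HC against 21.2 to 363.1 in CC_s, and 58.2 to 253.3 in HHC against 8.18 to 27.1 in CCC. The 12 macrophage promoters gave 74.8 to 177.1 in H against 160.7 to 433.7 in C, 77.2 to 189.8 in HC against 164.8 to 441.8 in CC_s, 98.0 to 122.1 in HH against 94.6 to 112.3 in CC_l and 126.2 to 202.9 in HHC against 140.1 to 251.4 in CCC, all with overlap. The 8 endothelial promoters lay apart between HH, at 360.3 to 407.2, and CC_l, at 202.3 to 278.2. Of these only Egfl7 had a promoter peak in all 22 libraries, and each of the others had one in 1 to 4, so the sum is mostly that of 1 promoter. The 10 progenitor promoters lay apart between H, at 103.0 to 122.4, and C, at 124.2 to 135.7, and between HHC, at 134.9 to 174.5, and CCC, at 109.1 to 129.0. Wt1 is in both the visceral and the mesothelial list, 2 of the mesothelial promoters (Upk1b and Bnc1) had no peak in any library, and the part of these cells in the fall of the visceral genes was not tested.

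Of the cell type lists, 2 of 12 adipocyte, 1 of 5 endothelial, 2 of 7 mesothelial, 0 of 8 macrophage and 0 of 10 progenitor loci tested were called between H and C, where 10.6% of all loci were. Among adipocyte genes the Fabp4 locus, a fatty acid carrier, rose by 0.92 (SE 0.15, limma adjusted p = 0.017) with its promoter by 1.12 (SE 0.15, 0.023), and the Pparg locus, the master factor of adipocytes, fell by 0.57 (SE 0.12, 0.030). The promoter of Cd14, a receptor of macrophages, was 17.71 to 18.38 in C and 14.19, its floor, to 14.46 in H (limma adjusted p = 0.0020), and it alone of these calls held without C 2 (limma adjusted p = 0.017). The mesothelial Lrrn4 locus fell by 1.24 (SE 0.18, 0.014). Of 14 alternatives the call of the Fabp4 locus held in 8, that of Pparg in 6 and that of Lrrn4 in 8. The endothelial Cdh5 locus was 15.98 to 17.53 in H and the mesothelial Upk1b locus 15.63 to 16.27, both with all C libraries at the floor of 14.06. Cdh5 and Upk1b could be tested only through H, where they lay above the floor, so their calls restate that.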

How the data were processed

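ATAC-seq of biotin-tagged adipocyte nuclei was analysed in 22 libraries, 1 per animal. The deposited values are the total and maximum signal of each peak, which the authors made from reads trimmed with Trim Galore 0.6.6, aligned with Bowtie2 2.4.4 to mm10 (GRCm38), handled with SAMtools 1.13 and bedtools 2.30 and called per library with SEACR 1.3 in stringent mode (versions per the submitters' processing notes). No scaling between libraries is stated. The study gives a minimum number of reads for its samples, but the peak lists hold no read counts, so the depth of each library is unknown here. A weak locus without a peak can be a matter of threshold. 1 mitochondrial peak per library was set aside.

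Peaks were assigned to 55413 GENCODE vM21 genes extended by 20000 bp, to promoters (2000 bp on each side of a start) and to 104657 union regions, with the whole signal of any touching peak. The log2 total signal was rank-mapped between libraries, and a feature was tested where the number of libraries above the floor reached the size of the smaller group. Each pair was fitted over all features with limma 3.58.1 (trend, R 4.3.3), with Benjamini-Hochberg adjusted p under 0.05 and, for regions, a log2 difference above 1. Covered shares were tested by exact permutation within duration. Python 3.11.15, numpy 2.4.6, pandas 2.3.3 and scipy 1.17.1 were used, and the tests were tested on simulated data.

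The 6 genes and the gene lists were chosen with earlier results of these data known. Beyond the members, the text names the region of highest mean signal in each locus, the region of smallest p in each pair, the 3 most alike coding loci and list genes called in any pair. The Fto promoter and first intron 1 region, the second regions of Irx5 and Shox2, the Tbx15 promoter region and list genes that were not called were named after their values were seen. Samples with the same replicate number correlated above 0.1 in both pairs of HH and CC_l, not in every pair of the other comparisons, and nothing in the labels says that a number marks shared animals or days, so the fits hold no block. The alternatives were the maximum signal, the share of summed signal (pseudocount 1), the 20000 strongest peaks, signal inside the locus, no flank, no filter, all libraries of a duration, a replicate block and each library left out.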

Additional observations from a re-analysis of the deposited data

How the results depend on the processing

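No member locus or promoter was called in any of the 4 comparisons under any alternative. Of the regions in these loci, 1 of 22 was called with the share of summed signal for H and C and 1 of 29 for HH and CC_l, where 11.5% and 6.86% of all regions were. For H and C 0 to 1 was called with each library left out (1 of 24 without H 2, against 3.43% of all regions). The covered share gave 0 to 1 calls with each library left out, for obesity (Irx3 without HH 2, against 15% of all loci) and for weight loss (Tbx15 without HHC 1, against 7.92%). The cause was not tested. Leaving out C 2 lowered the loci called over the genome between H and C from 3511 to 444. Replicate numbers gave correlations of deviations from -0.21 to 0.19, and not every library correlated best with its own number. With the replicate block 0 members were called, and the loci called over the genome fell from 3511 to 877.

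Many uncalled differences changed sign. With the maximum signal, the differences became 0.13 for Irx3, -0.25 for Irx5 and -0.67 for Shox2 in H and C, 0.022 for Irx5 in HC and CC_s, -0.35 for Shox2 in HH and CC_l, and -0.067 for Irx5 and -0.15 for the interval in HHC and CCC. With the share of summed signal, they became -0.38 for Fto, -0.11 for Irx3 and -0.29 for the interval in HC and CC_s, -0.016 for Irx3 and 0.28 for Tbx15 in HH and CC_l, and -0.071 for Irx5 and -0.086 for the interval in HHC and CCC. This scaling moved the median of all loci to -0.32 in HC and CC_s, -0.14 in HH and CC_l and -0.19 in HHC and CCC. Of the values that turned negative with it, only that of Fto lay below the median of its comparison. With the 20000 strongest peaks, they became 0.058 for Irx3 in H and C, -0.11 for Fto and -0.039 for the interval in HC and CC_s, and -0.15 for Fto, -0.030 for Irx5 and -0.069 for the interval in HH and CC_l. With signal inside the locus only, they became -0.13 for Fto and -0.12 for the interval in HC and CC_s. Without the flank, they became 0.072 for Irx3 in H and C, -0.24 for Irx5 in HH and CC_l and -0.22 for Irx5 in HHC and CCC. With the replicate block, they became -0.31 for Irx5, -0.14 for the interval and -0.099 for Tcf21 in HHC and CCC.

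With each library left out, H and C gave -0.20 to 0.10 for Irx3, -0.18 to 0.30 for Irx5, -0.58 to 0.023 for Tbx15 and -0.17 to 0.24 for Shox2. HC and CC_s gave 0.016 to 0.23 for Fto, 0.064 to 0.33 for the interval, 0.86 to 1.99 for Tbx15, -0.024 to 0.31 for Irx3 and -0.14 to 0.53 for Shox2. HH and CC_l gave -0.017 to 0.40 for Fto, -0.10 to 0.19 for Irx3, -0.27 to 0.56 for Irx5 -0.87 to 0.37 for Tbx15, 0.14 to 0.42 for the interval and 0.15 to 0.84 for Shox2. HHC and CCC gave -0.18 to 0.050 for Fto, 0.11 to 0.56 for Irx3, -0.38 to 0.60 for Irx5, -0.14 to 0.24 for the interval, -0.18 to 1.23 for Tbx15 -0.099 to 0.50 for Tcf21 and 0.28 to 0.95 for Shox2. The Fto intron 8 region with the AP-1 matches stayed lower in the diet group in all 4 comparisons under every alternative run.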
